A study of Mus musculus with 8 samples.

Results

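The genes described here encode the nuclear-encoded subunits of respiratory complexes II to V and the electron carrier cytochrome c. They were taken from the gene count table by biotype and name: protein-coding genes called Sdha, Sdhb, Sdhc, Sdhd, Cyc1 or Cycs, or beginning with Uqcr, Atp5, Cox4, Cox5, Cox6, Cox7 or Cox8. The rule found 50 of 54532 genes, or 50 of the 22046 protein-coding genes. Of these, 4 belong to complex II, 9 to complex III, 18 to complex IV and 18 to complex V, and Cycs stands alone. The names Atp5s (the coupling factor called factor B) and Cox7a2l (linked to the assembly of supercomplexes) are not core structural subunits, and Atp5o has 2 gene identifiers, of which the second had 0 counts. Ribosome profiling, which sequences RNA fragments shielded by ribosomes, and mRNA sequencing had been done on male brain at 3 months of age, from animals of wild-type (WT) or Nsun5-KO (KO) genotype by their labels. Nsun5 encodes an enzyme that methylates a cytosine of ribosomal RNA, and the series asks what its loss does to translation in the brain. Each genotype had 4 footprint and 4 mRNA libraries. The protocol names 5 mice of each genotype from the same litter, without strain, the kind of Nsun5 allele or a link from library to animal, so p-values measure only the spread between these libraries.

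Complex II, succinate dehydrogenase, passes electrons from succinate to ubiquinone, and complex III passes them on to cytochrome c. Complex IV, cytochrome c oxidase, transfers them to oxygen, and complex V, ATP synthase, uses the proton gradient to make ATP. Complexes III, IV and V combine subunits made from nuclear genes with a few made from the mitochondrial genome, while complex II is wholly nuclear, and neurons rely on this chain for most of their ATP.

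Library values below follow library numbers 1 to 4. Footprint libraries held 1.20 to 3.49 M counts (M, mega) in WT and 0.586 to 1.30 M in KO, and mRNA libraries 15.6 to 17.8 M. The 50 genes took 16611 ± 3944 footprint counts per WT library and 6775 ± 4062 per KO library (SD, n = 4). The mRNA counts of Nsun5 itself were 91, 82, 103 and 109 in WT, in the order of library number, and 102, 124, 83 and 110 in KO, so its mRNA did not separate the labels (log2 fold change 0.12 ± 0.15 SE, edgeR adjusted p = 0.820). The KO libraries below are therefore the libraries labelled KO. Some cell markers moved with the label. The summed mRNA level of 6 oligodendrocyte markers was 6553 to 7100 CPM (counts per 1 M) in WT and 4232 to 5771 in KO. That of 6 neuron markers was 5384 to 5842 and 6312 to 6840, and that of 5 cerebral cortex markers 238 to 339 and 335 to 461. In footprints the oligodendrocyte sum was 1990 to 2375 CPM in WT and 1418 to 1773 in KO, while the neuron sum was 3709 to 5089 in WT and 3471 to 3852 in KO. There all 6 neuron markers and 4 of 5 cortex markers had a log2 fold change below 0, where all of them lay above 0 in mRNA. None of these markers was called by edgeR in either readout, with an unadjusted p under 0.05 for 6 oligodendrocyte, 3 neuron and 4 cortex markers in mRNA and for 3, 0 and 0 in footprints. No marker of these 3 lists was at 0, and their part in the results below was not tested. In bulk tissue, fewer cells of a type and less RNA per cell cannot be told apart. The mRNA sums of the astrocyte, microglia and endothelium lists overlapped between the labels, with astrocyte markers at 3100 to 3641 CPM in WT and 3201 to 3840 in KO. The choroid plexus sum varied widely between libraries, from 306 to 1153 CPM in WT and from 48.0 to 1179 in KO.

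No respiratory subunit passed the test between KO and WT at an adjusted p under 0.05 in mRNA, in footprints or in translational efficiency, the footprint change after that of the mRNA. Genes were tested by edgeR's quasi-likelihood test with Benjamini-Hochberg adjustment over all genes tested, and DESeq2 and limma also called 0 members. Over all genes limma called 0. DESeq2 called 50 higher and 37 lower of 13058 in mRNA and 4 and 0 of 8476 in footprints. In translational efficiency it called 87 and 63 of 9673. In mRNA 47 members were tested, 27 lay above 0 and 20 below, and the median log2 fold change was 0.02 beside −0.01 over all 13058 genes, of which 0% were called. In footprints 40 members were tested, 21 above 0 and 19 below, with a median of 0.02 beside −0.00 over 8476 genes, of which 0% were called. Unadjusted p was under 0.05 for 2 of 47 members in mRNA, where 10.5% of all genes were, and for 3 of 40 in footprints, where 5.52% were. These shares lay near or below those of all genes.

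The intervals show how closely the subunits could be measured. The 95% interval of the mRNA change lay within 1.5-fold of no change for 41 of 47 members (87.2%), against 79.0% of all genes tested. For footprints this held for 22 of 40 members (55.0%), against 20.6% of all genes. For most subunits the mRNA data thus leave room only for changes below 1.5-fold, while for 18 of 40 subunits a larger footprint change lay inside the interval. The estimates ranged from −0.91 to 0.42 on the log2 scale in mRNA and from −0.55 to 0.42 in footprints.

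**Figure D1:**
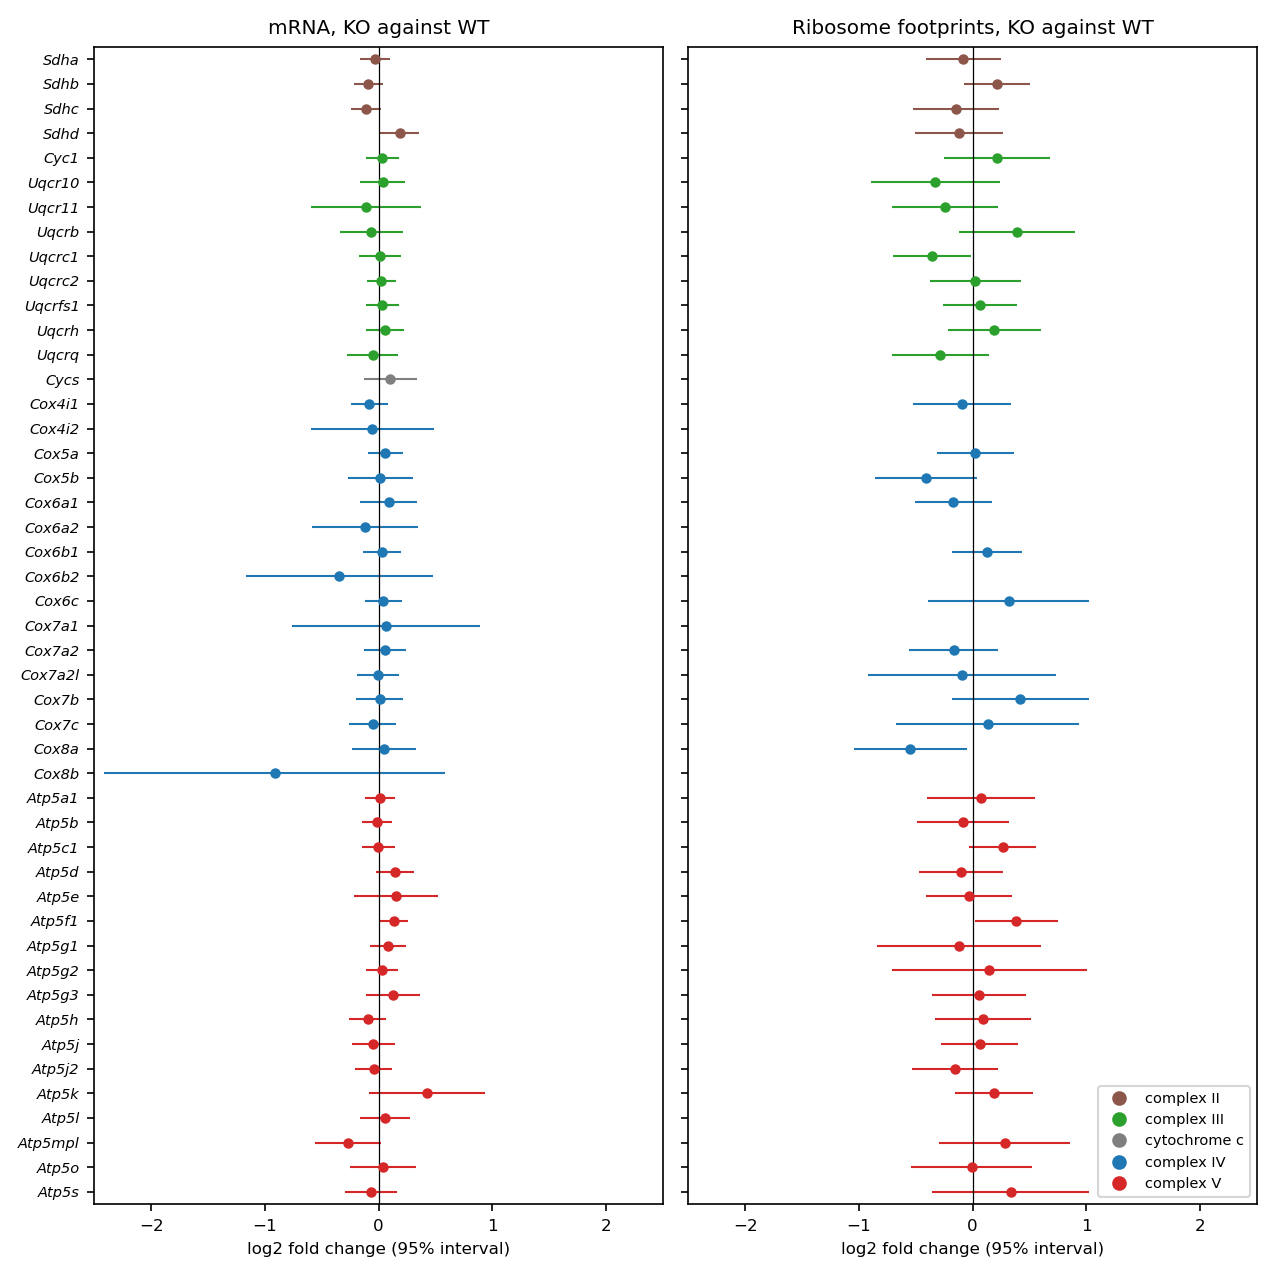
Log2 fold change of KO against WT (x axis) for each tested gene (y axis), in mRNA on the left and in footprints on the right, with 95% intervals as bars and colour for the complex. Most points lie close to 0, footprint intervals are the wider ones for 38 of the 40 genes tested in both (Atp5k and Uqcr11 are the exceptions), and the lowest mRNA estimate, −0.91 for Cox8b, has the widest mRNA interval.

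Complex II was the best measured of the complexes in footprints, with all 4 intervals within 1.5-fold. Its summed footprint level was 652 ± 21.6 CPM in WT and 639 ± 23.0 in KO (± SD of 4 libraries), and its summed mRNA level 731 ± 29.3 and 719 ± 14.1. Sdhb, the iron-sulfur subunit (chromosome 4, 140961203 to 140979193 in the files' coordinates), had 150.7, 146.7, 127.7 and 129.3 footprint CPM in WT and 157.6, 153.6, 171.1 and 161.9 in KO. The lowest KO library was thus above the highest WT library, as it was for 1.57% of all genes tested (2.04% had KO wholly lower, and 0 members did), and the log2 fold change was 0.21 ± 0.14 SE (adjusted p = 0.881 by edgeR). The mRNA of Sdhb was 119.2 to 125.2 CPM in KO and 122.7 to 136.2 in WT, with overlapping groups.

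Sdhd, a membrane anchor that binds ubiquinone, had 68.7, 72.8, 81.5 and 82.4 mRNA CPM in WT and 92.8, 89.1, 84.4 and 80.9 in KO. Only KO library 4 fell among the WT values, and the change was 0.19 ± 0.08 SE (unadjusted p = 0.0381, edgeR adjusted p = 0.455). Sdhc, the other anchor, went the other way, with 89.96, 88.07, 87.91 and 89.21 mRNA CPM in WT and 82.62, 87.61, 77.74 and 80.40 in KO. These groups did not overlap, as with 2.74% of all genes with KO lower, and the change was −0.11 ± 0.06 SE (edgeR adjusted p = 0.540). Sdha, the flavin-bearing catalytic subunit and, per length, the most abundant of the complex in mRNA, differed by −0.03 in mRNA and −0.08 in footprints.

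Complex III summed to 1248 ± 79.9 CPM in WT mRNA and 1256 ± 78.0 in KO mRNA, and to 913 ± 38.0 and 854 ± 41.2 footprint CPM (SD, n = 4). Uqcrc1, a core subunit on the matrix side (chromosome 9, 108936633 to 108949623), had 197.7, 239.1, 237.5 and 277.0 footprint CPM in WT and 201.6, 203.7, 169.1 and 166.8 in KO. WT library 1 lay among the KO values while the other 3 WT libraries were above all of KO. The footprint change was −0.36 ± 0.16 SE (unadjusted p = 0.0430, edgeR adjusted p = 0.881) with an mRNA change of 0.01 ± 0.08. Uqcrb, a small subunit known as the ubiquinone-binding protein, leaned the other way in footprints by 0.39 ± 0.24 SE: KO libraries held 33.4 to 36.9 CPM and WT libraries 34.6, 18.9, 22.3 and 33.5, so the groups overlapped, and without WT library 2 the estimate was 0.24. The lowest unadjusted p of the complex in mRNA belonged to Uqcrh, the hinge protein, at 0.06 ± 0.08 SE, and among those lower in KO to Uqcr11, a small accessory subunit, at −0.12 ± 0.22 SE, and both missed the threshold. Cycs, cytochrome c itself, had 102 to 136 mRNA CPM in WT and 117 to 143 in KO, a change of 0.10 ± 0.10 SE. Its footprints numbered 3, 3, 4 and 25 in WT and 9, 3, 0 and 2 in KO, too few for the test.

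Complex IV summed to 2303 ± 210 mRNA CPM in WT and 2322 ± 177 in KO, and to 1129 ± 177 and 1037 ± 38.4 footprint CPM (SD, n = 4). Cox8a, the common form of subunit 8 (chromosome 19, 7215158 to 7217616), varied among the WT libraries, with footprint CPM of 119.5, 195.4, 233.5 and 302.6 in WT and 161.3, 135.6, 140.3 and 146.2 in KO. WT library 1 was the lowest of all 8 and the other 3 WT libraries were above every KO library. The footprint change was −0.55 ± 0.23 SE (unadjusted p = 0.0335, edgeR adjusted p = 0.881), the lowest estimate among the members, and it was −0.32 without WT library 4. The mRNA of Cox8a, at 294 to 419 CPM in WT and 315 to 410 in KO, differed by 0.05 ± 0.13 SE. Cox7b, another small subunit, had the highest footprint estimate, 0.42 ± 0.28 SE, with KO libraries at 33.8 to 39.1 CPM inside the WT range of 16.8 to 41.8. Without WT library 3 this estimate was 0.24, below that of Atp5f1 at 0.33, and without WT library 4 it was 0.71. In mRNA, Cox5a, which lies on the matrix side, had the lowest unadjusted p among those higher in KO, at 0.06 ± 0.07 SE. Cox8b, the muscle form of subunit 8, had it among those lower, at −0.91 ± 0.68 SE from 96 counts in 8 libraries (−2.09 without KO library 1, −0.57 without KO library 4).

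Complex V summed to 4148 ± 163 mRNA CPM in WT and 4211 ± 220 in KO, and to 3699 ± 113 and 3753 ± 221 footprint CPM (SD, n = 4). Atp5f1, subunit b of the stalk that holds the catalytic head still (chromosome 3, 105942698 to 105960099), was the 1 member with an unadjusted p under 0.05 in both readouts. Its mRNA stood at 289.3, 280.8, 274.9 and 275.9 CPM in WT and 293.2, 302.4, 317.4 and 314.4 in KO, groups that did not overlap, as with 2.85% of all genes with KO higher. The mRNA change was 0.13 ± 0.06 SE (unadjusted p = 0.0431, edgeR adjusted p = 0.462). Its footprints were 54.4, 44.0, 43.6 and 55.4 CPM in WT and 52.5, 62.8, 69.2 and 72.6 in KO, overlapping by KO library 1, with a change of 0.38 ± 0.17 SE (unadjusted p = 0.0413, edgeR adjusted p = 0.881). Atp5c1, the rotating gamma shaft, had 137.1, 117.5, 127.7 and 113.4 footprint CPM in WT and 157.6, 147.2, 142.2 and 148.2 in KO. These groups did not overlap either, while its mRNA change was −0.00 ± 0.07 SE, and the footprint change of 0.27 ± 0.14 SE missed the threshold (edgeR adjusted p = 0.881). Atp5j2, subunit f of the membrane part, stood at −0.15 ± 0.18 SE in footprints, and Atp5mpl, a small membrane subunit, at −0.27 ± 0.13 SE in mRNA (edgeR adjusted p = 0.504).

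**Figure D2:**
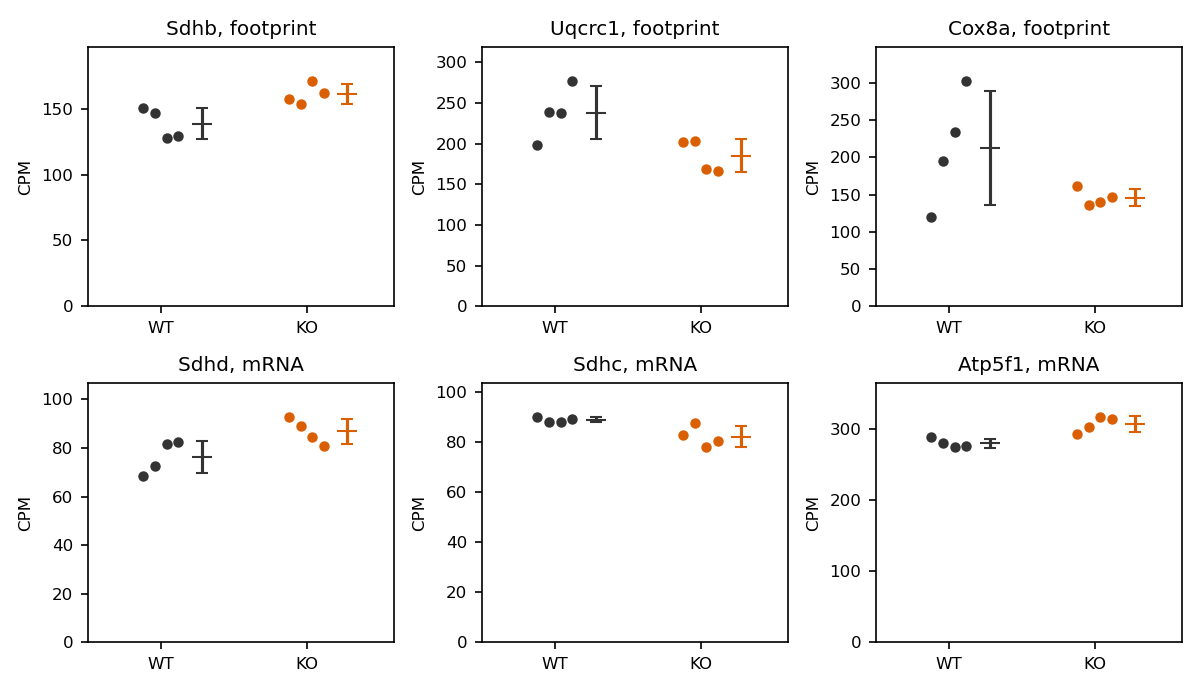
CPM (y axis, from 0) in each of the 4 WT and 4 KO libraries as points, with mean and SD beside them, for 3 genes in footprints (upper row) and 3 in mRNA (lower row). The groups do not overlap for Sdhb footprints, Sdhc mRNA and Atp5f1 mRNA, and the WT libraries of Cox8a spread from 119.5 to 302.6 CPM.

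Within the catalytic head of ATP synthase the proportions of the subunits were close in both genotypes in mRNA. Atp5a1 (alpha) over Atp5b (beta), per length in the deposited RPKM, was 1.01 ± 0.0201 in WT and 1.03 ± 0.0310 in KO (± SD of 4 libraries). Atp5a1 over Atp5c1 was 2.75 ± 0.144 in WT and 2.79 ± 0.115 in KO; the assembled head holds several alpha and beta chains for each gamma chain. In footprint RPKM the same ratio was higher and more variable, at 6.61 ± 1.28 in WT and 5.79 ± 1.01 in KO, with overlapping libraries. Atp5b over Atp5c1 was 3.75 ± 0.488 in WT and 2.93 ± 0.0810 in KO in footprints, where the lowest WT library, 3.16, was above the highest KO library, 3.05, and 2.72 ± 0.0952 and 2.71 ± 0.115 in mRNA. For Atp5d and Atp5e over Atp5c1 the footprint ratio was also lower on average in KO (2.53 against 1.93 and 1.17 against 0.946), with overlapping libraries. These ratios share Atp5c1 as divisor, whose own footprints lay higher in every KO library. Deposited lengths set these values, and no test was made of them.

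The translational efficiency of the subunits was tested in a single edgeR model of all 16 libraries, by the term that lets the genotype change differ between footprints and mRNA. Of 43 members tested, 20 lay above 0 and 23 below, with a median of −0.03 beside −0.00 over 9673 genes, of which 0% were called. Unadjusted p was under 0.05 for 3 members, where 10.9% of all genes were. These were Sdhb, higher by 0.31 ± 0.14 SE (edgeR adjusted p = 0.424), Cox8a at −0.59 ± 0.27 SE (edgeR adjusted p = 0.424) and Uqcrc1 at −0.36 ± 0.17 SE (edgeR adjusted p = 0.448). Atp5c1 came next among those higher, at 0.28 ± 0.14 SE. The interval lay within 1.5-fold for 15 of 43 members (34.9%), against 17.2% of all genes, so larger changes in efficiency remained possible for most subunits.

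The subunits differed widely from each other in footprints per mRNA. The footprint level over the mRNA level in WT, taken from the same model, sets the typical gene near 0 and so ranks genes without giving an absolute efficiency. Of 43 members, 22 were higher than the typical gene and 9 lower at an adjusted p under 0.05 (edgeR), where 28.5% and 29.6% of all genes were, and the median was 0.49 beside 0.01. With scaling by library totals 5 members were called higher and 20 lower, as all genes moved to a median of −1.01, and relative to that median the members stood at 0.48. When genes under a mean RPKM of 5 were left out, the members' median was 0.25. The SD over the members was 1.27, beside 1.13 over all genes, and WT and KO values correlated across the 43 members at a Pearson r of 0.955, a description in which the points share libraries.

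All 4 subunits of complex II were called higher, with a median of 0.97, led by Sdhc at 1.46 ± 0.13 SE and Sdhb at 1.18 ± 0.10 SE. In complex III 5 of 9 were called higher and 0 lower, and the highest was Uqcr11 at 1.70 ± 0.22 SE. Complex IV had 4 of 14 higher (28.6%) and 5 lower (35.7%), shares close to those of all genes. Cox7a2 and Cox6b1 stood at 1.61 and 1.37, while Cox7a2l, Cox7c and Cox6c stood at −2.74 ± 0.16, −2.27 ± 0.19 and −2.20 ± 0.18 SE. Cox7c, a small membrane subunit, had 166 to 192 mRNA CPM in WT and only 14.0 to 19.8 footprint CPM.

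Complex V had 9 of 16 called higher and 4 lower. Atp5k and Atp5e, subunits e of the membrane part and epsilon of the head, stood at 2.04 ± 0.20 and 1.95 ± 0.17 SE. Atp5d, the delta subunit beside epsilon, followed at 1.81 ± 0.12 SE. With libraries left out Atp5k ranged from 1.65 to 2.25 and Atp5e from 1.52 to 2.17, so this order is not firm. At the other end were Atp5g2 at −2.22 ± 0.18 SE and Atp5f1 at −1.42 ± 0.11 SE (all with edgeR adjusted p under the threshold). The highest ratio of all, 3.23 ± 0.45 SE, belonged to Cox7a1, the muscle form of subunit 7A. It had 133 mRNA and 53 footprint counts in 8 libraries each. The Cox7a1 footprints numbered 4, 13, 20 and 9 in WT and 2, 3, 1 and 1 in KO. Its change in translational efficiency was −1.45 ± 0.81 SE, so this rank is that of the WT libraries. Cycs, with 16506 mRNA counts against 49 footprint counts, and Atp5l, with 13307 against 62, fell under the filter on footprints and have no test. The ratios had a Spearman rho of −0.01 with the deposited gene length and −0.19 with mRNA RPKM across the 43 members.

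**Figure D3:**
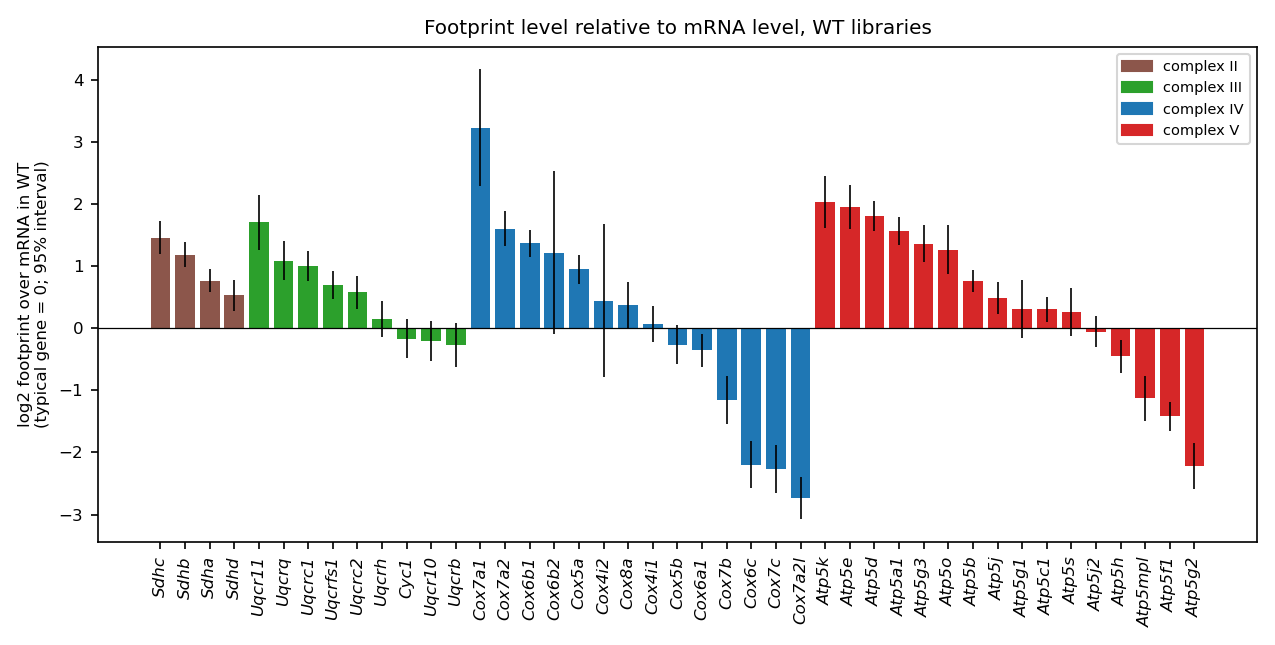
Log2 footprint over mRNA level in WT (y axis, typical gene at 0) for the 43 tested genes (x axis), grouped and coloured by complex, with 95% intervals. Complex II lies wholly above 0, and complex V reaches from 2.04 for Atp5k to −2.22 for Atp5g2.

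Reads that match several places can be split or dropped between near-identical genes, and how they were counted is not given in the sources used here. The 8 processed pseudogenes named after members held 0 footprint counts and 0 to 42 mRNA counts in 8 libraries. The values of subunits with close copies are therefore uncertain, and the part of such reads in the low ratios was not tested.

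Several subunits exist as alternative forms encoded by separate genes, and in these brains the common form made up most of the mRNA of subunits 4, 6A, 6B and 8. Per length, in the deposited mRNA RPKM of WT, Cox4i1 stood at 289 ± 26.5 and Cox4i2, a form known from lung and low oxygen, at 2.27 ± 0.676 (SD, n = 4). Cox6a1 stood at 446 ± 75.7 against 9.75 ± 1.69 for Cox6a2, the heart and muscle form. Cox6b1 stood at 201 ± 19.6 against 1.36 ± 0.239 for Cox6b2, a testis form. Cox8a was the most abundant member, at 632 ± 106, with Cox8b at 2.60 ± 1.14. Cox8c, a testis form, had 0 counts in all 16 libraries, which allows up to 0.194 CPM in the mRNA library and 5.77 CPM in the footprint library of smallest TMM size (3 counts each), for counting error only.

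The shares of these forms were close in both genotypes and were not tested. Cox4i1 made up 99.2% ± 0.160 of the subunit 4 mRNA RPKM in WT and 99.2% ± 0.0340 in KO, and Cox6a1 97.8% of subunit 6A in WT. Muscle tissue markers were low: 5 of them summed to 8.94 to 12.1 mRNA CPM in WT and 9.16 to 13.8 in KO, and 1 of 5 reached a mean of 1 RPKM. Among the genes named for subunit 7A, Cox7a2 stood at 123 ± 12.7 and Cox7a2l, the supercomplex-linked relative, at 108 ± 12.1 mRNA RPKM, whose ranges of 1 SD overlap, while in footprint RPKM they stood at 170 ± 18.8 and 7.41 ± 1.20.

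Subunit c, which forms the rotating ring of ATP synthase, is encoded by 3 genes whose mature proteins are identical. Their WT mRNA RPKM were 21.0 ± 1.57 for Atp5g1, 46.1 ± 2.40 for Atp5g2 and 91.0 ± 13.9 for Atp5g3 (SD, n = 4). Their footprint RPKM were 11.8 ± 5.93, 4.66 ± 1.48 and 107 ± 21.3, so Atp5g1 was below Atp5g2 in mRNA and above it in footprints. That order in mRNA rests on the deposited lengths, since in CPM Atp5g1 was above Atp5g2 in both, at 105 against 78.9 in mRNA and 60.7 against 8.18 in footprints. Atp5g3 thus held 57.4% of the mRNA RPKM of the 3 genes and 86.5% of the footprint RPKM. None of the 3 passed the test between KO and WT, with mRNA changes of 0.09 ± 0.07, 0.03 ± 0.06 and 0.12 ± 0.11 SE and edgeR adjusted p of 0.710 to 0.909.

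**Figure D4:**
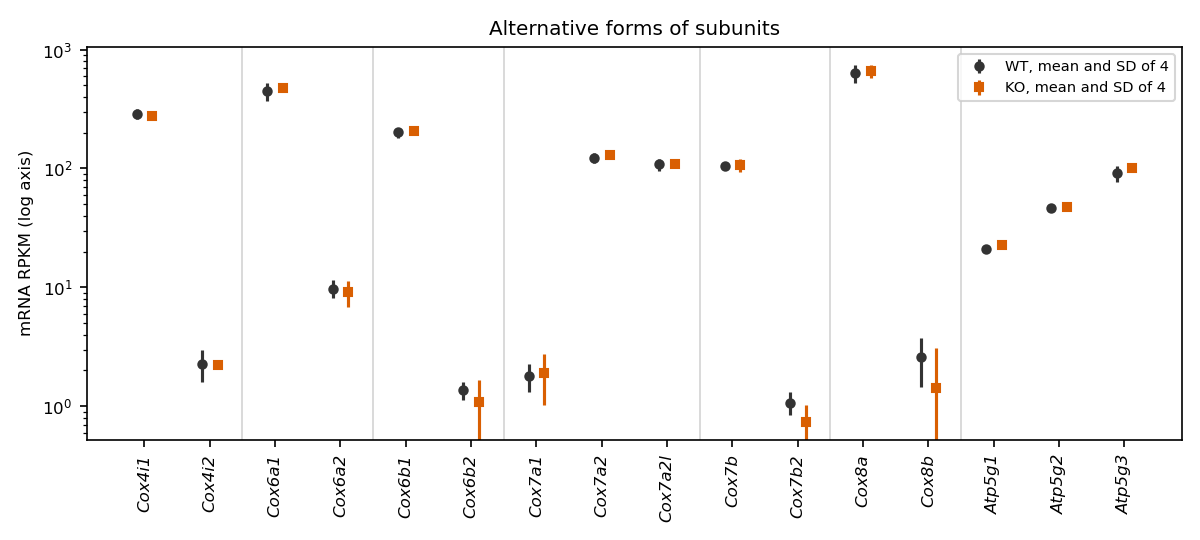
mRNA RPKM (y axis, log scale) of the genes named for alternative forms of 7 subunits, Cox7a2l included, with mean and SD of 4 WT and 4 KO libraries. In WT the lowest common form of subunits 4, 6A, 6B, 7B and 8, Cox7b at 105, lies above the highest tissue form, Cox6a2 at 9.75, the 3 subunit c genes lie between 21.0 and 91.0, and Cox8c, at 0, is not drawn.

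Across the 8 mRNA libraries the subunits moved together, but not by genotype. Of 47 members, 35, 37, 6 and 10 lay below their own 8-library mean of log2 (CPM + 1) in WT, in the order of library number. In KO 7, 7, 42 and 27 did. Over all genes this held for 47.7% to 50.2% in each library. WT libraries 1 and 2 and KO library 3 were thus low and WT libraries 3 and 4 and KO libraries 1 and 2 high. These were the 3 lowest libraries for 23 of the 43 members whose mRNA averaged at least 5 RPKM (53.5%), against 7.56% of all such genes, a description of libraries picked after their values were seen. The 50 genes together made up 0.872% ± 0.0556 of protein-coding mRNA counts in WT and 0.873% ± 0.0577 in KO (± SD of 4 libraries). The members' median mRNA change was −0.01 without WT library 1, −0.02 without WT library 2, −0.03 without KO library 2 and −0.06 without WT libraries 1 and 2, against 0.02 with all libraries and 0.06 without KO library 3. The sign of this small median thus rested on single libraries, and 0 members were called in each case.

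The movement was widest in a few small subunits. Atp5k had 30.4, 29.3, 59.3 and 52.7 mRNA CPM in WT and 63.2, 63.1, 41.6 and 62.5 in KO. Its SD over 8 libraries was 0.46 on the log2 scale, where the median member had 0.12 and the median gene of at least 5 RPKM 0.13. Uqcr11 followed with an SD of 0.37, from 47.2 CPM in WT library 1 to 95.4 in WT library 3, and Atp5e with 0.29, from 55.1 to 91.1 in the same libraries. The large catalytic subunits Sdha, Atp5a1 and Atp5b, in contrast, had SDs of 0.05 to 0.06. In footprints 23, 24, 15 and 15 of 40 members lay below their own mean in WT and 23, 15, 21 and 18 in KO, where 45.2% to 49.7% of all genes did.

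**Figure D5:**
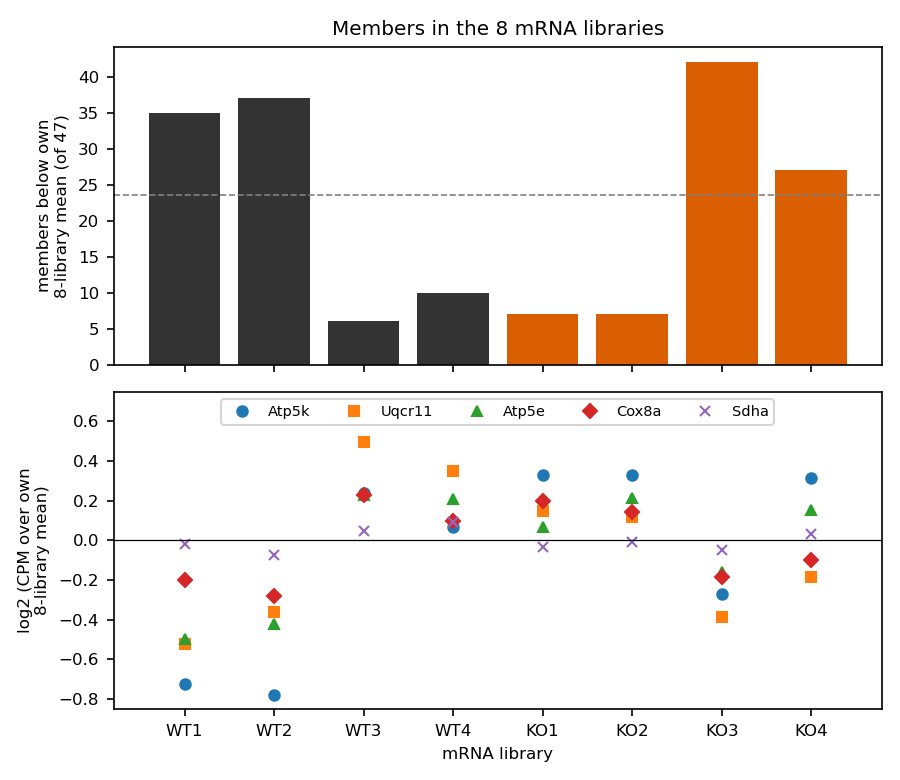
Upper panel: number of the 47 tested genes whose mRNA level in log2 (CPM + 1) was below its own mean over 8 libraries (y axis), per library (x axis), with WT in black, KO in orange and a dashed line at an even split. Lower panel: log2 of CPM over the mean CPM of the 8 libraries for 5 genes. Atp5k, Uqcr11, Atp5e and Cox8a are low in WT libraries 1 and 2 and KO library 3, while Sdha stays close to 0.

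Promoters were examined because the members moved together. Nuclear respiratory factor 1 (NRF1), GABP, which is an ETS family factor, and YY1 are known regulators of respiratory genes. RefSeq windows of GRCm38.p6, from 250 bases before to 50 bases after the start, were matched for 37 of the 49 member symbols. The 250 bases before the start are shown 5′ to 3′ for Atp5k and Uqcr11, whose mRNA varied most between libraries, for Cox6a1, a common form, and for Cox8b, a muscle form. They lie at chr5:108434400-108434649, chr10:80406822-80407071, chr5:115348959-115349208 and chr7:140900447-140900696, all on the minus strand, and capitals mark the motif matches described next. Atp5k, Uqcr11 and Cox6a1 are among the 7 of 37 members whose windows hold the exact NRF1 motif, so these examples favour matches.
Atp5k: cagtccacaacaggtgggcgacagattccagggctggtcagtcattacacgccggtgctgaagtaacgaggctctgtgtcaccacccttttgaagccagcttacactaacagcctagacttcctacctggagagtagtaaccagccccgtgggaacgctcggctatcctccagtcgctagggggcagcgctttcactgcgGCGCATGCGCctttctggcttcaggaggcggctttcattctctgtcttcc
Cox6a1: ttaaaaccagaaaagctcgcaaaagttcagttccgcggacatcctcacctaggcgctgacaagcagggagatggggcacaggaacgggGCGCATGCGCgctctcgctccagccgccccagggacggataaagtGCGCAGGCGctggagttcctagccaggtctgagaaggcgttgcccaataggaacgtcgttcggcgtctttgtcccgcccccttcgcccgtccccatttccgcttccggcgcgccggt
Uqcr11: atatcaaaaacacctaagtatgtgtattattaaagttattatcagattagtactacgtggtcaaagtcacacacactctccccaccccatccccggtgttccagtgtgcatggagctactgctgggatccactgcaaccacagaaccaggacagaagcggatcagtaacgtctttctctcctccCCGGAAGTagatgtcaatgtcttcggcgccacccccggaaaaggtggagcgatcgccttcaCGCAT
Cox8b: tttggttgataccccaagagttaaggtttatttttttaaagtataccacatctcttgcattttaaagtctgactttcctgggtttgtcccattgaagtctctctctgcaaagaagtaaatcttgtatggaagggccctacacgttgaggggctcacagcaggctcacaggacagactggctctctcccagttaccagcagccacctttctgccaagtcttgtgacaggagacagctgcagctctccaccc

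Both strands were searched. The NRF1 motif GCGCATGCG was found in the windows of 7 of 37 members (18.9%), Atp5g2, Atp5k, Atp5l, Cox6a1, Cycs, Uqcr11 and Uqcrc1, and in 2.61% of 17491 protein-coding genes. With a free middle base, GCGCANGCG, which includes the former, it was found in 13 members (35.1%) and 9.63% of genes. The ETS motif CCGGAAGT was found in 4 members (10.8%), Atp5h, Cox8a, Uqcr11 and Uqcrh, and in 5.69% of genes, and the YY1 motif AAGATGGCG in 2 (5.41%), Atp5j and Atp5j2, and in 2.14%. The match in Atp5k begins 50 bases before the start, those in Cox6a1 begin 162 and 117 bases before it and the ETS match in Uqcr11 begins 66 bases before it. The 5 capitals that end the Uqcr11 stretch open an NRF1 match that runs past the start. These letters were not in the window of Cox8b, which holds 2 CG pairs where the median member holds 19 and the median gene 15. Matches did not follow the spread of the mRNA in every member. The window of Atp5e, with an SD of 0.29 over the mRNA libraries, held none of these motifs. That of Sdha, with an SD of 0.05, held GCGCANGCG. Whether the motifs relate to the shared movement was not tested. A match is a description of the sequence and not a bound site.

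Genes that work with the subunits gave no calls between genotypes either. The mitochondrial genome encodes core subunits of complexes III and IV and membrane subunits of complex V, and all 6 of those listed lay below 0 in mRNA, at a median log2 fold change of −0.33, with 0 called by edgeR and an unadjusted p under 0.05 for 3. Their lowest unadjusted p belonged to mt-Co3, a core subunit of complex IV, at −0.71 ± 0.24 SE (edgeR adjusted p = 0.397). In footprints 3 of the 6 could be tested and all 3 were above 0, at a median of 0.66 with 0 called and an unadjusted p under 0.05 for 2, led by mt-Co1 at 0.71 ± 0.28 SE (edgeR adjusted p = 0.875). In translational efficiency the same 3 were also above 0, at a median of 0.86. Unadjusted p was under 0.05 for all 3, with 0 called by edgeR. Here mt-Co1 and mt-Cytb each stood at 0.86 ± 0.27 SE (edgeR adjusted p = 0.263 for both), and mt-Atp8 at 1.90 ± 0.82 SE. The KO footprint libraries varied widely. In footprint CPM mt-Co1 stood at 326 ± 56.3 in WT and 536 ± 250 in KO, and mt-Cytb at 257 ± 35.3 and 409 ± 205 (SD, n = 4). For all 3 genes the highest footprint CPM was in KO library 3, the shallowest footprint library, with 462 counts for mt-Co1 and 370 for mt-Cytb. The part of that library in these changes was not tested. The mt-Atp8 value rested on few mRNA counts, 21, 9, 68 and 56 in WT and 19, 14, 8 and 10 in KO. Its footprint counts were 1545, 2043, 2428 and 7186 in WT and 960, 1429, 1611 and 1426 in KO. In WT this gave 1276 ± 962 footprint CPM against 2.30 ± 1.67 mRNA CPM (SD, n = 4). The footprint over mRNA ratio in WT was 10.2 ± 0.61 SE on the log2 scale, where the highest member stood at 3.23. The mt-Atp8 efficiency is thus not a reliable measure of its translation. The change of mt-Atp8 was −1.57 ± 0.56 SE in mRNA and 0.33 ± 0.48 SE in footprints. The genes mt-Co2, mt-Co3 and mt-Atp6 had 0 footprint counts in all libraries, while the nuclear partners of the same complexes were counted. For counting error alone this allows up to 5.77 CPM in the library of smallest TMM size. In WT mRNA these 3 genes averaged only 113, 82.0 and 172 CPM, beside 22030.8 for mt-Co1 and 10613.5 for mt-Cytb. How reads with several matches were counted is not given. Its part in these values, the mt-Co3 change included, was not tested.

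Among 37 assembly factors, which insert haem and copper or hold subunits during assembly, 22 were tested in footprints and 33 in mRNA, with medians of −0.02 and 0.01 and 0 called. Among 11 regulators of respiratory genes 0 were called in mRNA or footprints. Ppargc1b, a coactivator of mitochondrial genes, had the lowest unadjusted p in mRNA, at 0.38 ± 0.12 SE (edgeR adjusted p = 0.375). Gabpa, the DNA-binding chain of GABP, had it in footprints, at −0.95 ± 0.41 SE (edgeR adjusted p = 0.881). Unadjusted p was under 0.05 for 0 assembly factors in either readout and for 1 of the tested regulators in each.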

How the data were processed

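Brain libraries of 2 genotypes were analysed as footprint and mRNA tables, with the 4 libraries of each taken from the column names. The deposited gene table holds raw counts, whole numbers with no normalization. The deposited RPKM tables were made by the authors from those counts and gene lengths, separately for footprints and mRNA, so a level is compared only within a table. Per the submitters' processing notes, TopHat2 and mm10 were used; the counting program and the treatment of reads with several matches are not given in the sources used here.

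The tests were run in edgeR 4.0.16 under R 4.3.3, on TMM-scaled counts. Footprint genes passed filterByExpr with a minimum count of 10, mRNA genes a mean RPKM of at least 1, and genes in the joint model that mean in both kinds. CPM are relative to TMM library sizes. The threshold was an adjusted p of 0.05. The SE was the log2 fold change over the root of the F statistic. The method was also run on simulated counts with a fixed dispersion for each kind of library and no shared movement of genes. That run does not measure the power or error rate for these members. Library numbers were not taken to pair genotypes. In deviations from their group mean, same-numbered WT and KO libraries correlated at −0.302 to 0.0261 in mRNA and −0.245 to 0.0739 in footprints over genes. Footprint and mRNA libraries of 1 name correlated at −0.0968 to 0.145. Such values cannot settle how libraries were paired. The joint model treated its 16 libraries as independent.

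The members and lists were chosen with earlier results of these data known. Genes with library values were those of lowest unadjusted p per complex and direction, in translational efficiency the 2 per direction, the 3 highest and lowest footprint to mRNA ratios, and the subunit c genes; others named for their levels, spread or ratio were chosen after their values were seen. Alternatives used DESeq2 1.42.0, limma 3.58.1 on log2 RPKM with pseudocounts of 0.1 and 1, other scalings and filters, a replicate block and leaving out libraries.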

Additional observations from a re-analysis of the deposited data

Results flagged for a closer look

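Dixon's test at 95% was applied to 76 groups of 4 libraries, of which chance marks about 1 in 20, and 3 were marked. Atp5k mRNA stood at 41.6 CPM in KO library 3, where the other KO libraries held 62.5 to 63.2. That library was also low for 42 of 47 members. Atp5c1 mRNA stood at 222.8 CPM in WT library 1, where the others held 208.8 to 210.9. Atp5g3 footprints stood at 318 CPM in WT library 1, where the others held 214 to 228.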

How the results depend on the processing

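With edgeR, DESeq2 and limma, under every scaling, filter and left-out library tried, 0 members were called between KO and WT in mRNA, footprints or translational efficiency. Some settings did call other genes. The looser filter called 74 higher and 12 lower of 22286 genes in footprints and 13 and 11 of 28997 in mRNA. The replicate block also gave 0 called members and 22 higher and 9 lower footprint to mRNA ratios.

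The members' median footprint change of 0.02 became −0.15 with library totals, where all genes moved to −0.15, −0.061 with a looser filter, where all genes moved to −0.11, and −0.023 without WT libraries 1 and 2. The median change in translational efficiency became −0.18 with library totals. Leaving out libraries gave medians of −0.02 to 0.05 in footprints, −0.06 to 0.06 in mRNA and −0.08 to 0.03 in translational efficiency. Leaving out 1 library moved the uncalled estimates by over 1.5 times for 5 of the members followed in footprints. The same held for 8 of those followed in mRNA and 0 of those in translational efficiency. In mRNA, estimates changed sign when single libraries were left out for Atp5g2 (−0.0048 without WT library 2, up to 0.058) and Uqcr11 (0.067 without WT library 3, 0.0012 without WT library 4, down to −0.27), and without WT libraries 1 and 2 for Cox5a (−0.0023), Cycs (−0.066), Atp5g3 (−0.048) and Atp5g2 (−0.027).

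The members' median footprint to mRNA ratio of 0.49 in WT became 0.59 with upper quartile scaling, −0.53 with library totals (5 higher, 20 lower), 0.25 when genes under a mean RPKM of 5 were dropped and 0.35 with limma and a pseudocount of 1, and Atp5g1 turned to −0.72 with library totals. Leaving out libraries gave 0.43 to 0.55, with 21 to 23 higher and 9 to 11 lower. Footprint depth limits the footprint comparisons, with 3268 member counts in the shallowest library. The causes of these shifts were not tested.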
